A study of Mus musculus with 8 samples.

Results

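The comparison is of CD34 positive with CD34 negative keratinocytes from mouse back skin, measured within 2 genotypes and described across all named genes. It rests on 4 of the 8 arrays of the series, chosen by their labels alone. The 4 groups, of 1 array each, are CD34 positive cells of K14Snail mice, CD34 positive cells of wild type mice, CD34 negative cells of K14Snail mice and CD34 negative cells of wild type mice. All mice were of the CD1 background, 8 weeks old and of both sexes, and each array held a pool of 11 mice. K14Snail mice carry the transcription factor Snail under the keratin 14 promoter, which is active in basal keratinocytes of the epidermis and its appendages. Cells were released by overnight trypsin and drawn with a magnet after labelling with a biotinylated CD34 antibody, so the positive fraction is an enriched one and the negative fraction is what was left. The other 4 arrays, pools of 9 mice, held cells drawn with the Mts24 antibody and their negative fractions, and served as a comparison and for the spread. Negative fractions serve as controls of the positive ones in the submitters' design.

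CD34 is a surface glycoprotein that in mouse skin marks keratinocytes of the hair follicle bulge, the niche in which hair follicle stem cells rest between growth phases. Bulge cells are known to be kept at rest by BMP and FGF18 signals and to be set into growth when BMP signalling is blocked and Wnt signalling rises. Endothelial cells, mast cells and some dermal cells carry CD34 as well, so their markers were followed alongside.

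Values below are log2 levels from RMA, a method that corrects background, normalizes arrays to each other and summarizes the probes of a probe set. A difference is CD34 positive minus CD34 negative on the log2 scale, given as the mean of both genotypes ± its moderated standard error from limma (n = 2 pairs, 1 per genotype). Where a pair of values stands together, it is for K14Snail and wild type in that order. A gene passed the test when its limma p-value was under 0.05 after Benjamini-Hochberg adjustment across all 10720 tested genes. Those 10720, of 19938 genes with 1 probe set chosen for each, reached 7.70 (the median of all gene values) on at least 2 of the 8 arrays. With 1 array per group, p-values measure the spread between these arrays, and the labels do not say whether arrays of one genotype share mice.

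Of the 10720 genes, 2542 (23.7%) passed the test, 1298 higher (12.1%) and 1244 lower (11.6%) in CD34 positive cells. All 2542 differed in the same direction in both genotypes. Of the rises 539 and of the falls 442 were at least 2-fold. Of the rises, 123 reached 7.70 on both CD34 positive arrays and on no other array. They entered the test only through the group in which they are high. Counts over tested genes below are thus descriptions, to be read beside the 12.1% and 11.6% over all tested genes. The gene lists below were chosen with earlier results of these data known. Where a group lies under 7.70, the size of a difference is uncertain, because no measure of background came with the values. In bulk samples fewer cells of a type and less RNA per cell cannot be told apart, so "higher" and "lower" here are of RNA in the fraction. Leaving out the K14Snail CD34 negative array brought the count to 1154, and leaving out the wild type CD34 negative array brought it to 1200.

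Cd34, the antigen used for the sort, and the bulge markers Lgr5 and Lhx2 were higher in the positive cells. Cd34 had a log2 level of 13.29 and 13.57 in K14Snail and wild type CD34 positive cells, against 6.27 and 6.12 in the negative cells, a difference of 7.24 ± 0.25 (151-fold, adjusted p = 0.000203). Lgr5, a receptor for R-spondins that marks the lower bulge and hair germ, had 12.23 and 12.38 in the positive cells against 7.07 and 6.87 in the negative cells. Lhx2, a LIM homeodomain factor needed to keep bulge cells in the stem cell state, had 12.44 and 12.79 in the positive cells against 7.78 and 8.05 in the negative cells. For all 3 the fractions were far apart and the genotypes close together. Lgr5 differed by 5.33 ± 0.26 (40.3-fold, adjusted p = 0.000283) and Lhx2 by 4.70 ± 0.24 (26-fold, adjusted p = 0.000308).

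Markers of other cells that carry CD34 were mostly under the filter. Of 14 endothelial markers on the array 0 were tested, 13 lay under 7.70 on all 4 CD34 arrays, and their summed linear level (2 raised to the log2 level) was 1514 and 1564 in K14Snail and wild type CD34 positive cells, against 1425 and 1365 in the negative cells. Of 9 mast cell markers only Kit was tested (7.38 and 7.08 in the positive against 8.02 and 8.04 in the negative cells, adjusted p = 0.083), and 0 of 6 adipocyte markers were tested. Of 11 fibroblast markers 4 were tested: Col1a2, a chain of collagen I, rose by 0.95 ± 0.10, Col1a1 and Col3a1 did not pass (differences of 0.55 ± 0.22 and -0.12 ± 0.14), and Thy1, a surface antigen that T cells share, fell by 1.98 ± 0.095. Krt14, the basal keratin whose promoter drives the transgene, had 13.56 and 13.33 in the positive against 13.79 and 13.68 in the negative cells and did not pass (adjusted p = 0.0922). Snai1, which encodes Snail, had 10.91 and 8.02 in K14Snail and wild type positive cells, against 11.04 and 7.99 in K14Snail and wild type negative cells. It was thus high in both K14Snail fractions, and it did not differ detectably between the fractions (-0.046 ± 0.094, adjusted p = 0.781).

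The largest rise after Cd34 was that of Aspn (asporin, a small leucine-rich proteoglycan that binds TGF-beta), with 12.23 and 11.37 in K14Snail and wild type positive cells against 4.97 and 5.49 in the negative cells (6.57 ± 0.43). Angptl7, an angiopoietin-like secreted protein, followed with 12.70 and 12.49 against 6.80 and 6.77 (5.81 ± 0.21), and Serpinb11, a serpin of the clade B family, with 11.47 and 9.87 against 4.80 and 5.15 (5.69 ± 0.52). In these 3 genes the lowest positive array lay above the highest negative array by more than 4 log2 units. Il31ra, the receptor subunit for the itch cytokine IL-31, differed by 5.48 ± 0.30, Dab2, an endocytic adaptor, by 5.08 ± 0.25, and Grem1, a secreted BMP antagonist, by 5.02 ± 0.41. The list of the 12 largest rises was completed by Pdzrn4, a PDZ and RING finger protein (4.81 ± 0.26), Sema3e, a secreted semaphorin that signals through plexin D1 (4.47 ± 0.23), and Krt75, a keratin of the companion layer (4.46 ± 0.23), beside Lgr5 and Lhx2. In 11 of these 12 genes both negative arrays lay under 7.70, all but Lhx2, so the sizes of these rises are uncertain. In all 12 both positive arrays lay above both negative arrays, which choosing the largest rises largely fixed. The same holds below wherever the arrays of the largest members of a list are said to lie apart. The share of all tested genes without overlap was not counted.

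The largest falls were smaller than the largest rises. Il20ra, a subunit of the receptor for IL-20 family cytokines, had 6.97 and 8.48 in K14Snail and wild type positive cells against 11.74 and 11.58 in the negative cells (-3.94 ± 0.43, adjusted p = 0.00249). Tmprss11g, a membrane-bound serine protease, fell by 3.43 ± 0.37, Ccr4, a chemokine receptor, fell by 3.36 ± 0.43, and Kcnj16, an inward rectifier potassium channel, fell by 3.25 ± 0.19. Sema3d, another secreted semaphorin, fell by 3.22 ± 0.55, Satb1, a chromatin organizer found in T cells and in epidermis, by 3.20 ± 0.42, and Slc24a3, a sodium, potassium and calcium exchanger, by 3.08 ± 0.36. Bmp4, a BMP ligand, had 7.22 and 8.54 in the positive cells against 10.77 and 11.07 in the negative cells (-3.04 ± 0.34). The remaining 4 were Npy1r, a neuropeptide Y receptor (-3.02 ± 0.23), Npl, an enzyme of sialic acid breakdown (-3.01 ± 0.54), Hpgds, the haematopoietic prostaglandin D synthase (-2.995 ± 0.27), and Gna14, a G protein subunit (-2.997 ± 0.28). In 11 of these 12 genes the fall was larger in K14Snail than in wild type mice, with Hpgds the exception. In 10 of the 12 the K14Snail positive array lay under 7.70, so the sizes of these falls in K14Snail mice are uncertain. Without the K14Snail CD34 negative array Sema3d and Npl no longer passed, and without the wild type CD34 negative array Npl did not. A larger fall in K14Snail mice was also seen in 739 of all 1244 falls (59.4%), against 589 of the 1298 rises (45.4%) that were larger in K14Snail mice. Over all 10720 tested genes the difference was lower in K14Snail than in wild type mice in 5141 (48.0%).

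**Figure D1:**
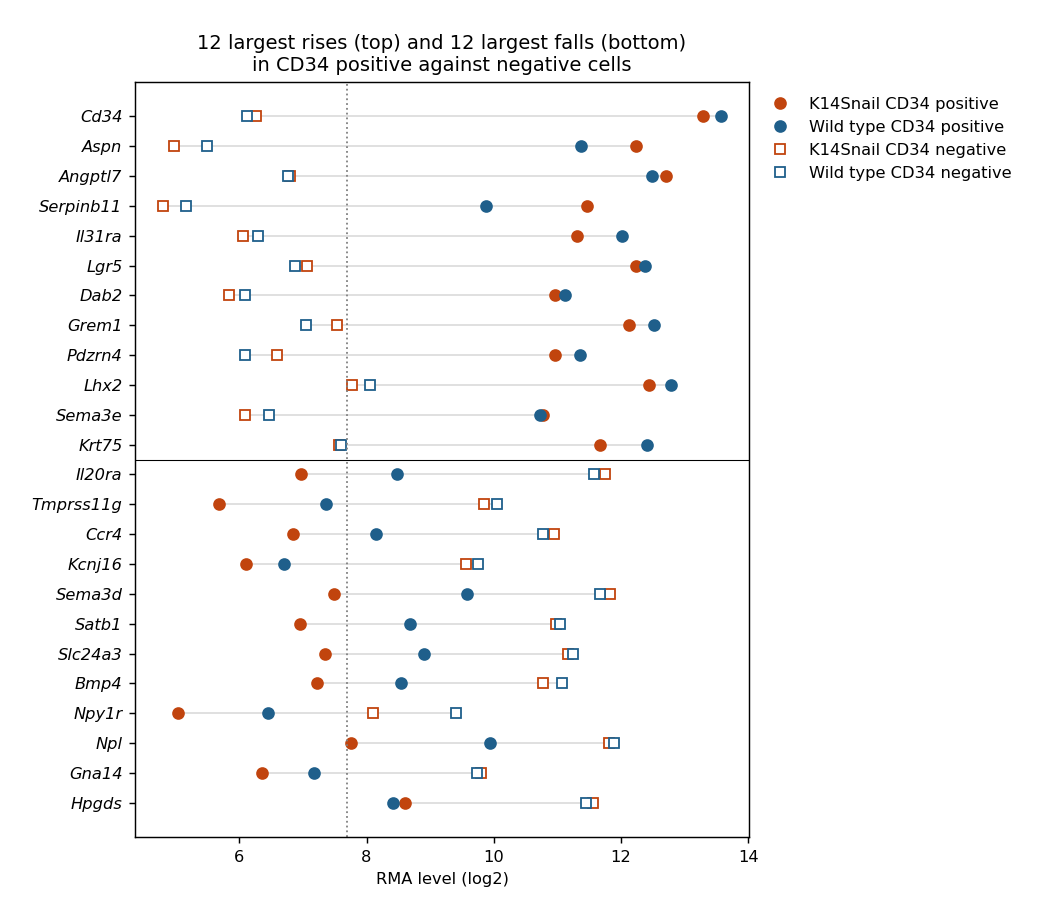
Log2 RMA level (horizontal axis) of the 12 genes with the largest rise (upper rows) and the 12 with the largest fall (lower rows) on each of the 4 CD34 arrays; filled circles are CD34 positive cells, open squares CD34 negative cells, orange K14Snail and blue wild type, and the dotted line is the filter level of 7.70. Cd34 stands at 13.29 and 13.57 in K14Snail and wild type positive cells against 6.27 and 6.12 in the negative cells. In the lower rows the distance from square to circle is larger in K14Snail than in wild type mice in 11 of 12 genes. In 10 of those 12 rows the K14Snail circle lies under 7.70.

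The start of these 24 genes was looked up in RefSeq promoters of build GRCm38.p6 (250 bases before to 50 after the start), where 23 were found and Lgr5 was not. Some genes have several entries, such as Pdzrn4 with 2 and Satb1 with 5. Only the first entry of each gene was read, so other starts are not covered. Because Wnt components changed in this comparison, the promoters that hold the core letters CTTTGA of TCF and LEF binding sites on either strand are shown. These were 3 of the 23: Pdzrn4 and Sema3e, which rose, and Ccr4, which fell. Capitals mark the core (written TCAAAG where it lies on the other strand) and, in Pdzrn4 and Ccr4, the letters CAGGTG or CACCTG, an E-box that Snail proteins bind; the motifs do not overlap. That E-box stood in 9 of the 23 windows, those of Angptl7, Serpinb11, Sema3d, Satb1, Bmp4, Gna14 and Hpgds included, which are not shown.
Pdzrn4, chr15:92396560-92396859, plus strand: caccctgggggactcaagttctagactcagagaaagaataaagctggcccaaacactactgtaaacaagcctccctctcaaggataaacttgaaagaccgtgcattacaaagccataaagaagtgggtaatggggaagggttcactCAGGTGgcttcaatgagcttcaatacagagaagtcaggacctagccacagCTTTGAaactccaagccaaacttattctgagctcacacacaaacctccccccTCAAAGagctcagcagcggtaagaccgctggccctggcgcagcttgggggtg
Sema3e, chr5:14025026-14025325, plus strand: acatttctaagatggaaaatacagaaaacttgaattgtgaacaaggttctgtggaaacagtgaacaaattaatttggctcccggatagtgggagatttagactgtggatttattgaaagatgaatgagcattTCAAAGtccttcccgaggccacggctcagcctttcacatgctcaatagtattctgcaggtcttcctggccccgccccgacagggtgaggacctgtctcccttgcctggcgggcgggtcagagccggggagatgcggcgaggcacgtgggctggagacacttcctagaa
Ccr4, chr9:114496495-114496794, minus strand: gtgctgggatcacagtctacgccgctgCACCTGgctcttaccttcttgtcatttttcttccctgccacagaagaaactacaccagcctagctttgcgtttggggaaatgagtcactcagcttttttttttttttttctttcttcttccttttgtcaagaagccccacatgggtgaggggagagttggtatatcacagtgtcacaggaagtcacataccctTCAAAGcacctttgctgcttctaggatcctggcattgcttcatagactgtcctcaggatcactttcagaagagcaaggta
The TCF and LEF core stood in 10.7% of 1022 promoters of genes that rose and 11.5% of 1000 of genes that fell, against 11.6% of 8632 promoters of tested genes and 16.003% of all 32851 promoters. The E-box stood in 18.6% of promoters of genes that rose and 22.1% of genes that fell, against 17.5% of those of tested genes and 20.2% of all. The core TAATTA, which LIM homeodomain factors such as Lhx2 bind, stood in none of the 23 windows, and in 2.15% of the promoters of genes that rose and 3.10% of those of genes that fell, against 2.39% of those of tested genes and 5.29% of all. Shares of the gene sets count the first entry of each gene, while those of all promoters count every entry. A match of letters is a description of these windows and shows no binding.

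Among 31 bulge stem cell genes on the array, all of them tested, 29 rose, 0 fell and 2 did not pass, where 12.1% of all tested genes rose. The list was chosen with earlier results of these data known, so its count is a description and no independent test. Cd34, whose rise the sort itself fixed, is 1 of the 29 and enters the median. Their median difference was 2.26 (2.31 in K14Snail and 2.10 in wild type mice), beside -0.03 over all genes tested. A rise of these genes was not particular to the CD34 sort. In the Mts24 sort their median difference was 1.26, and 29 and 30 of the 31 were higher in positive cells of K14Snail and wild type mice. The largest in the CD34 sort, after Cd34 and Lgr5, were Dab2, Grem1, Lhx2 and Fgf18. Fgf18, a growth factor that holds bulge cells at rest, had 11.17 and 12.57 in K14Snail and wild type positive cells against 7.60 and 7.61 in the negative cells (4.27 ± 0.37). Its negative arrays were alike and its wild type positive array was the higher of the positive ones. The smallest rise in the list was that of Krt15, a keratin of bulge and basal cells that the epidermis also makes, with 13.51 and 13.67 in the positive against 12.90 and 13.14 in the negative cells (0.57 ± 0.10). Col17a1, a hemidesmosome collagen (0.24 ± 0.15), and Ptgs2, a cyclooxygenase (-0.013 ± 0.39), did not pass. Krt15 lost its call without either CD34 negative array or without the K14Snail CD34 positive array, while 27 to 29 of the list rose in every fit that left out 1 array.

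Of 15 upper follicle genes, all tested, 2 rose (Fst, a secreted activin and BMP antagonist, by 2.26 ± 0.13, and Sostdc1, a secreted BMP and Wnt inhibitor, by 0.79 ± 0.18), and Defb1, a beta-defensin, fell by 1.11 ± 0.16. Over all tested genes 12.1% rose and 11.6% fell, so these counts lie near or below those shares. The median difference of the 15 genes was 0.01 in the CD34 sort and 2.04 in the Mts24 sort. Plet1, whose product carries the Mts24 antigen, had 11.74 and 11.82 in CD34 positive against 11.22 and 11.15 in CD34 negative cells and did not pass (adjusted p = 0.111). Of 16 basal epidermis genes, all tested, 4 rose and 1 fell. Thbs1, a matrix glycoprotein, rose by 1.29 ± 0.28, Efnb1, an ephrin, by 0.51 ± 0.10, and Mt1, a metallothionein, by 0.37 ± 0.098, beside Krt15, while Ly6d, a surface antigen of differentiating keratinocytes, fell by 1.12 ± 0.18. Of 15 tested hair germ and matrix progenitor genes 5 rose and 6 fell. The hair shaft regulator Hoxc13 rose by 2.60 ± 0.21 and the Hedgehog effector Gli2 by 2.07 ± 0.12, while Sox21, a factor of the hair cuticle, fell by 1.39 ± 0.15 and Ovol1, a zinc finger factor of differentiating cells, by 1.29 ± 0.19. These small counts leaned on single arrays. Without the wild type or without the K14Snail CD34 negative array 0 basal genes rose, without the wild type one 2 hair germ genes rose and 3 fell, without the K14Snail one 2 fell, and without the wild type CD34 positive array 5 upper follicle genes rose.

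Wnt signalling starts with secreted ligands, which bind Frizzled receptors and LRP coreceptors; R-spondins raise the response through Lgr receptors, and TCF and LEF factors carry it to the genes. Of 15 Wnt and R-spondin ligands on the array 12 were tested, 8 fell and 0 rose, with a median difference of -0.78 over the tested and -0.63 over all 15. Wnt3 had 7.67 and 8.99 in K14Snail and wild type CD34 positive cells against 11.08 and 11.52 in the negative cells (-2.96 ± 0.24, adjusted p = 0.00103). Rspo3, an R-spondin, had 6.30 and 6.93 in the positive against 9.005 and 9.11 in the negative cells (-2.44 ± 0.22), and Wnt5a, a ligand of the non-canonical branch, had 6.67 and 6.85 against 8.79 and 9.25 (-2.26 ± 0.23). For each of these the positive and negative arrays did not overlap, which picking the largest falls largely fixed. Wnt16 fell by 1.21 ± 0.17, Wnt4 by 0.79 ± 0.14 and Wnt3a by 0.78 ± 0.18, and Wnt6 (-0.36 ± 0.16) and Wnt10b (-0.31 ± 0.13) did not pass. Without the K14Snail CD34 negative array 4 ligands passed, and without the wild type one, or in a fit on the 4 CD34 arrays alone, 5 passed. Wnt4 was lost without either CD34 negative array. Wnt3a was lost without the K14Snail CD34 negative array, and also without either CD34 positive or either Mts24 negative array.

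Of 19 tested receptors and coreceptors 7 rose and 2 fell. Beside Lgr5, the Frizzled receptor Fzd2 had 11.81 and 12.37 in K14Snail and wild type positive cells against 8.50 and 8.60 in the negative cells (3.54 ± 0.22, 11.6-fold). Fzd3 rose by 2.38 ± 0.11, Fzd7 by 2.15 ± 0.11 and Fzd1 by 1.88 ± 0.093, while the coreceptor Lrp4 and Fzd10 fell. Fzd10 fell by 2.15 ± 0.14, with 7.99 and 8.28 in the positive against 10.08 and 10.48 in the negative cells. The positive and negative arrays of Fzd2 and Fzd10 lay apart in opposite directions in both genotypes. Lgr6, which marks cells above the bulge (0.92 ± 0.28), and Znrf3, a ubiquitin ligase that removes Frizzled receptors (-0.69 ± 0.19), did not pass.

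Of 10 tested Wnt inhibitors, of 17 on the array, 5 rose and 1 fell. The median difference was 0.88 over the tested but 0.12 over all 17. The secreted inhibitor Dkk3 had 10.70 and 11.45 in the positive cells against 8.01 and 7.53 in the negative cells (3.31 ± 0.29), and Wif1, which binds Wnt ligands, had 10.46 and 9.30 against 6.95 and 6.71 (3.05 ± 0.28). Sfrp1, a secreted Frizzled-related protein, rose by 1.53 ± 0.20, and the intracellular inhibitor Nkd1 by 0.98 ± 0.11, beside Sostdc1, while Kremen1, a receptor for Dkk proteins, fell by 0.47 ± 0.094. Sfrp2 (2.21 and 0.14 in K14Snail and wild type mice, adjusted p = 0.189) and Apcdd1 (-0.71 ± 0.29) did not pass. Among 10 tested transcription factors and targets of the pathway, Tcf7l1, a repressor that holds Wnt targets down in stem cells, rose by 2.15 ± 0.087, Tcf7l2 by 1.26 ± 0.15, the corepressor Tle1 by 1.68 ± 0.30 and Ctnnb1, which encodes beta-catenin, by 0.35 ± 0.086. Axin2, a widely used target of canonical Wnt signalling, had 9.30 and 9.17 in the positive cells against 10.06 and 10.18 in the negative cells and fell by 0.88 ± 0.15, and Tle3 fell by 0.64 ± 0.095. Tle2 (0.33 ± 0.11) and Ccnd1 (0.30 ± 0.23) did not pass. Without the K14Snail CD34 negative array Kremen1, Tle1, Ctnnb1, Axin2, Tle3 and Sostdc1 no longer passed, and without the wild type one Kremen1, Ctnnb1, Axin2 and Sostdc1 did not. Ctnnb1 was also lost when any of the other arrays was left out.

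**Figure D2:**
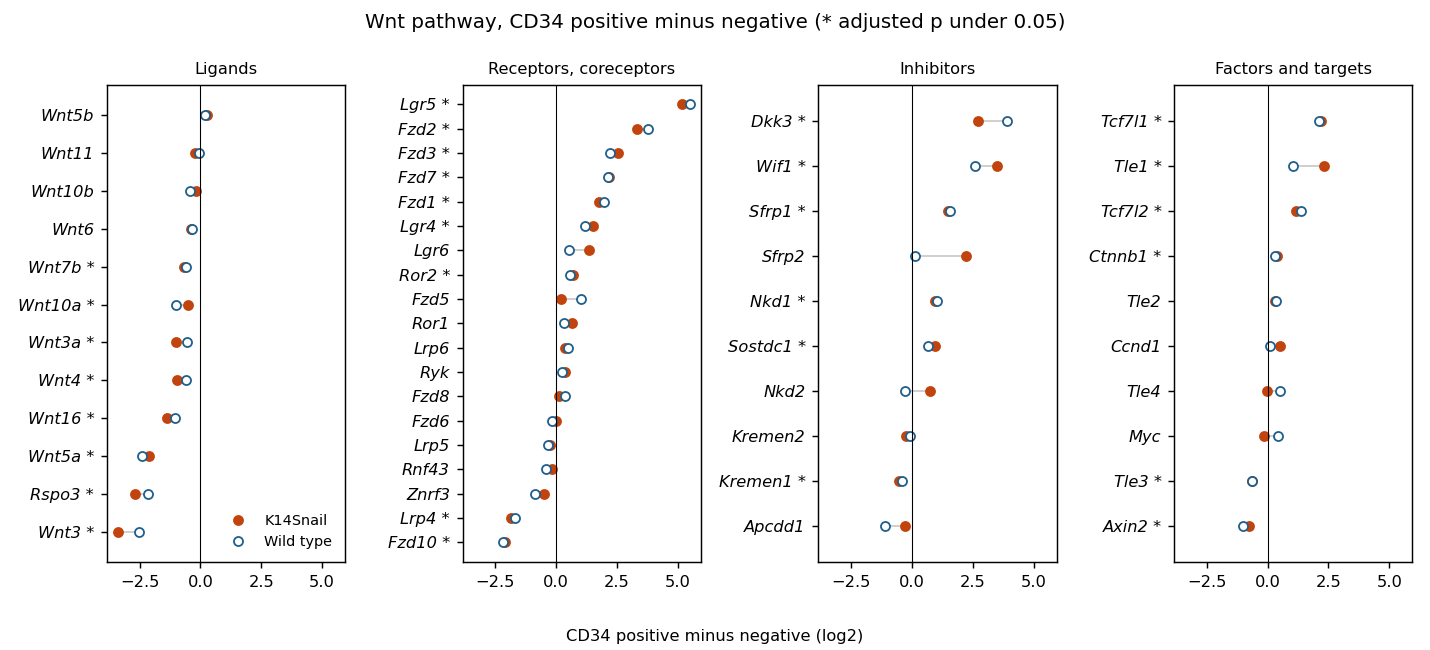
CD34 positive minus negative difference (log2, horizontal axis) of each tested Wnt ligand, receptor, inhibitor and factor or target, in K14Snail (filled orange) and wild type mice (open blue), with a star for adjusted p under 0.05. The 8 starred ligands lie left of 0, among them Wnt3 at -3.40 and -2.52 in K14Snail and wild type mice, and 7 of the 9 starred receptors lie right of it.

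BMP and TGF-beta ligands act through receptors that phosphorylate Smad proteins, and their reach is set by antagonists that bind them outside the cell. Of 9 tested ligands 4 rose and 1, Bmp4, fell. Tgfb3 had 10.53 and 9.44 in K14Snail and wild type positive cells against 7.18 and 7.19 in the negative cells (2.80 ± 0.34), Bmp6 had 9.57 and 10.19 against 7.44 and 7.23 (2.55 ± 0.21), and Tgfb2 had 9.91 and 9.53 against 7.34 and 7.64 (2.23 ± 0.20). Bmp2 rose by 1.63 ± 0.18, so the BMP ligands measured did not share a direction. Inhba, an activin subunit (1.49 and -0.20 in K14Snail and wild type mice), and Bmp7 (0.42 ± 0.20) did not pass. Receptors differed less: of 9 tested, the type I receptor Tgfbr1 (0.52 ± 0.093) and the activin receptor Acvr2a (0.57 ± 0.13) rose and the coreceptor Tgfbr3 fell by 1.53 ± 0.21. Acvrl1 (0.44 ± 0.13) and Bmpr2 (-0.24 ± 0.095) did not pass. Without either CD34 negative array Tgfbr1 and Acvr2a no longer passed.

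Of 14 tested antagonists and modulators of these pathways, of 17 on the array, 12 rose and 0 fell. The median difference was 1.43 over the tested and 1.21 over all 17. Not all of the 12 are secreted: the intracellular Smad6 and Smad7 and the membrane protein Bambi are among them. Grem1 had 12.12 and 12.52 in K14Snail and wild type positive cells against 7.54 and 7.05 in the negative cells. Fstl1, a follistatin-like secreted protein, had 10.72 and 9.57 against 6.60 and 6.05 (3.82 ± 0.20), and Fst had 12.22 and 11.82 against 9.80 and 9.72. The positive arrays of all 3 lay above the negative arrays. The latent TGF-beta binding proteins Ltbp2 (3.31 ± 0.25), Ltbp1 (2.34 ± 0.35) and Ltbp3 (1.54 ± 0.10) rose too, and Twsg1 (-0.23 ± 0.11) and Fstl3 (0.021 ± 0.099) did not pass. Of 13 tested targets and transducers 6 rose and 0 fell. Ccn2, a matricellular target of TGF-beta and of YAP, had 13.20 and 13.13 in the positive against 9.17 and 8.93 in the negative cells (4.12 ± 0.16, 17.3-fold). The Id genes, direct targets of BMP signalling that restrain differentiation, all rose: Id2 by 1.87 ± 0.18, Id3 by 1.37 ± 0.25, Id4 by 1.18 ± 0.22 and Id1 by 0.81 ± 0.18. Smad9, a BMP-responsive Smad, rose by 2.03 ± 0.23, and Smad1 (0.27 ± 0.13) and Smad5 (0.24 ± 0.089) did not pass. Without the K14Snail or without the wild type CD34 negative array Id1, Id3 and Id4 no longer passed and 3 targets did, and Ltbp1 was lost without the K14Snail one.

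Hedgehog signals are received by Ptch1 and its helpers and carried by Gli factors. Of 10 tested Hedgehog genes, of 13 on the array, 7 rose and 0 fell, with a median difference of 1.46 over the tested and 0.95 over all 13. Hhip, a target that traps the ligand, had 8.02 and 8.48 in K14Snail and wild type positive cells against 5.43 and 5.76 in the negative cells (2.66 ± 0.23). The effectors Gli2 (9.45 and 9.70 against 7.25 and 7.76), Gli1 (1.67 ± 0.25) and Gli3 (1.30 ± 0.20) rose, as did the coreceptors Boc (1.85 ± 0.12) and Gas1 (1.62 ± 0.11). Smo, the signal transducer (0.27 ± 0.11), and Ihh (0.19 ± 0.19) did not pass, and Shh lay under the filter. The genotypes gave nearly the same differences for Hhip (2.59 and 2.72 in K14Snail and wild type mice), Boc (1.92 and 1.79) and Gas1 (1.63 and 1.60). Gli1 was lost without the wild type CD34 negative array.

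**Figure D3:**
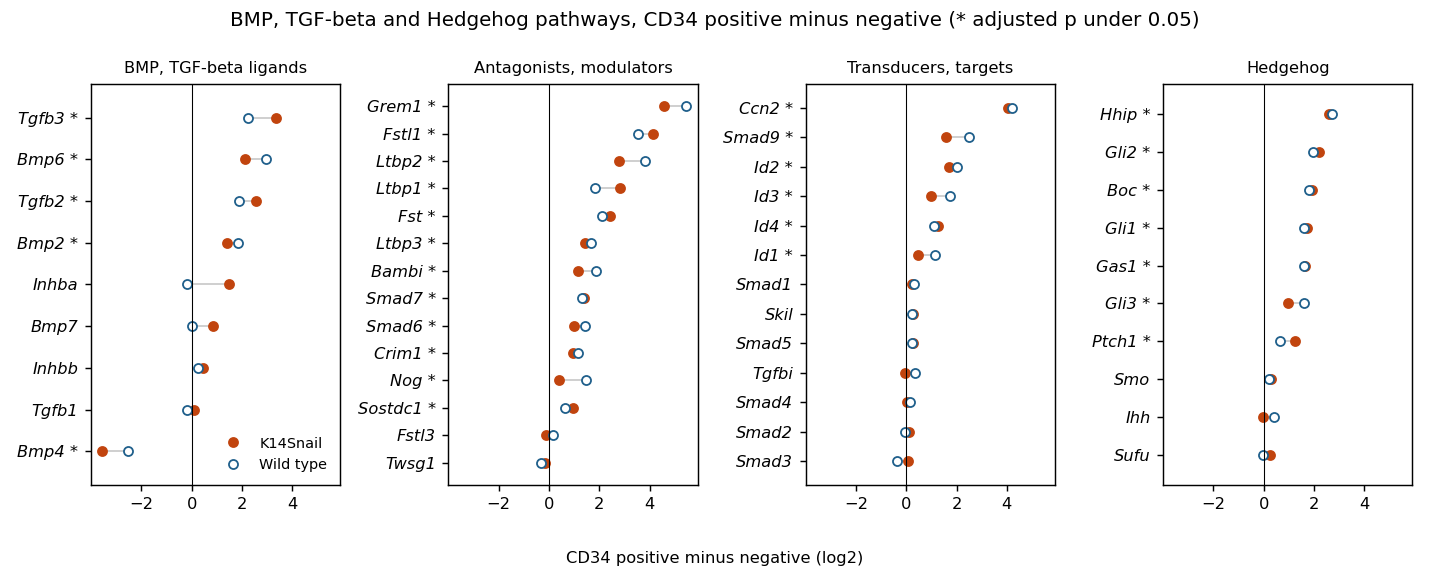
CD34 positive minus negative difference (log2, horizontal axis) of each tested BMP and TGF-beta ligand, antagonist or modulator, transducer or target, and Hedgehog gene, in K14Snail (filled orange) and wild type mice (open blue), with a star for adjusted p under 0.05. Bmp4 is the only starred gene left of 0, at -3.55 and -2.54 in K14Snail and wild type mice, and 12 antagonists and modulators are starred to the right.

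In the FGF pathway 5 of 13 tested genes, of 20 on the array, rose and 0 fell. The median difference was 0.30 over the tested but 0.06 over all 20. Beside Fgf18, the ligand Fgf1 had 9.89 and 10.67 in K14Snail and wild type positive cells against 7.28 and 7.35 in the negative cells (2.96 ± 0.24), and the receptor Fgfr1 had 11.99 and 12.09 against 9.23 and 9.32 (2.77 ± 0.14). The receptor-like Fgfrl1 (0.73 ± 0.12) and the target factor Etv4 (0.51 ± 0.14) rose by less, and the target Dusp6 (0.62 ± 0.23) and Fgfbp1 (-0.54 ± 0.22) did not pass. Notch genes split, with 5 of 13 tested higher and 4 lower. Hey1, a transcriptional target, rose by 2.36 ± 0.089, the glycosyltransferase Lfng by 1.12 ± 0.14 and the coactivator Maml2 by 1.07 ± 0.14. The ligand Dll1 fell by 0.99 ± 0.22, the target Nrarp by 0.93 ± 0.12 and the receptor Notch3 by 0.78 ± 0.14, and Notch2 (-0.45 ± 0.14) and Hes1 (-0.39 ± 0.16) did not pass. In the EGF pathway 1 of 10 tested genes rose and 4 fell. Egfr, the receptor, rose by 0.40 ± 0.084, while the ligands Epgn (6.79 and 7.34 in the positive against 8.50 and 9.49 in the negative cells) and Ereg and the receptors Erbb3 and Erbb2 fell by 1.93 ± 0.17, 1.27 ± 0.30, 0.88 ± 0.12 and 0.55 ± 0.10. Btc (-0.56 ± 0.29) and Lrig1 (0.50 ± 0.32) did not pass. Without the wild type CD34 negative array 3 FGF genes rose, 3 Notch genes rose and 1 fell. Without the K14Snail one 1 Notch gene and 2 EGF genes fell, and 2 Notch genes fell without the wild type CD34 positive array or without either Mts24 negative array.

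Of 40 tested matrix and basement membrane genes, of 57 on the array, 22 rose and 2 fell, with a median difference of 0.90 over the tested and 0.48 over all 57. After Aspn, the proteoglycan Bgn had 12.30 and 9.51 in K14Snail and wild type positive cells against 8.94 and 7.17 in the negative cells (2.84 ± 0.27), and fibulin Fbln1 had 11.39 and 11.49 against 9.04 and 8.42 (2.71 ± 0.20). Bgn was higher in K14Snail than in wild type cells in both fractions, yet its positive array was the higher in each genotype. Tenascin Tnc rose by 2.62 ± 0.25 and periostin Postn by 2.21 ± 0.42, while fibulin-like Efemp1 fell by 2.07 ± 0.32, with 8.54 and 8.80 in the positive against 10.80 and 10.68 in the negative cells. Fn1, fibronectin (0.78 and 2.42 in K14Snail and wild type mice), and the laminin chain Lama4 (1.52 and 0.053) did not pass. Among 25 tested integrins and adhesion molecules 8 rose and 6 fell. Itga1, a collagen receptor subunit, had 9.35 and 8.17 in the positive against 5.74 and 5.56 in the negative cells (3.11 ± 0.27). Alcam rose by 2.64 ± 0.17, the cadherin Cdh11 by 2.43 ± 0.24, and Itgb6 and Itgb8, subunits of integrins that activate TGF-beta, by 2.33 ± 0.27 and 1.81 ± 0.16. Itgae, an integrin of intraepithelial lymphocytes, fell by 1.86 ± 0.24, and Cdh13 (0.54 ± 0.25) and Itga2 (0.45 ± 0.21) did not pass. Of 4 tested markers of pericytes and smooth muscle, of 10 on the array, 3 rose: the myosin light chain Myl9 (2.998 ± 0.18), the proteoglycan Cspg4 (2.02 ± 0.22) and calponin Cnn1 (1.49 ± 0.19). The median difference of these markers was 1.75 over the tested but 0.18 over all 10. The smooth muscle actin Acta2 did not pass and differed by genotype in its values, with 10.31 and 7.42 in K14Snail and wild type positive cells against 8.04 and 8.06 in the negative cells. The part of pericytes and fibroblasts in the matrix rises was not tested. Efemp1 was lost without the K14Snail CD34 negative array and Postn without the K14Snail CD34 positive array, where 4 matrix genes fell.

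Guidance cues split, with 10 of 34 tested higher and 9 lower. Sema3e had 10.78 and 10.72 in K14Snail and wild type positive cells against 6.09 and 6.46 in the negative cells, while Sema3d had 7.50 and 9.57 against 11.83 and 11.67. These secreted semaphorins thus lay at opposite ends of the list. The Slit receptors also parted, Robo2 rising by 2.003 ± 0.22 and Robo1 falling by 1.87 ± 0.25. Sema3f fell by 1.93 ± 0.18, the semaphorin receptor Plxna2 rose by 1.64 ± 0.22, and Nrp2 (1.83 and -0.082 in K14Snail and wild type mice) and Sema3c (-0.54 ± 0.17) did not pass. Without the K14Snail CD34 negative array 4 rose and 4 fell, and without the wild type one 5 rose and 4 fell.

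Of 62 tested transcription factors of skin lineages 26 rose and 19 fell. After Lhx2, the T-box factor Tbx1 had 11.89 and 12.46 in K14Snail and wild type positive cells against 7.92 and 7.92 in the negative cells (4.25 ± 0.18). Sox9, which specifies bulge stem cells, had 12.68 and 12.78 against 10.38 and 10.34 (2.38 ± 0.086), and the Iroquois factor Irx4 rose by 2.35 ± 0.18. Satb1, by contrast, had 6.95 and 8.68 in the positive against 10.98 and 11.05 in the negative cells. In each of these the fractions did not overlap, which picking the largest differences largely fixed. Snai2, a relative of Snai1, did not pass, with 10.62 and 11.30 in K14Snail and wild type positive cells against 8.18 and 10.71 in the negative cells: its K14Snail negative array was the low one. Msx2 (0.34 and 1.49 in K14Snail and wild type mice) did not pass either. Without the K14Snail CD34 negative array 8 of the factors fell, and without the wild type one 10.

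Of 28 tested receptors for cytokines and chemokines, of 33 on the array, 4 rose and 14 fell, with a median difference of -0.68 over the tested and -0.43 over all 33. Il31ra stood apart, with 11.30 and 12.01 in K14Snail and wild type positive cells against 6.05 and 6.29 in the negative cells (44.7-fold). Il1r2, the decoy receptor for IL-1, had 7.39 and 9.06 in the positive against 11.05 and 11.04 in the negative cells (-2.82 ± 0.43), and Il6ra, the IL-6 receptor, had 8.93 and 9.87 against 12.002 and 11.76 (-2.48 ± 0.28). Tnfrsf19, a receptor of the TNF family known from hair follicle and other stem cells, fell by 1.95 ± 0.10, with 9.09 and 9.13 in the positive against 11.02 and 11.09 in the negative cells. Cxcr2 (-1.41 ± 0.40) and Il4ra (-0.77 ± 0.22) did not pass. Il1r2 was lost without the K14Snail CD34 negative array, where 2 receptors rose and 11 fell, and without the wild type one 2 rose and 10 fell.

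Markers of skin T cells moved with these falls. Of 13 T cell markers on the array 9 were tested, 8 fell and 0 rose, with a median difference of -1.86 over the tested and -1.40 over all 13, and their summed linear level was 3629 and 2800 in K14Snail and wild type positive cells, against 10323 and 13748 in the negative cells. Both sorts shared this direction: in the Mts24 sort the median difference of the 9 was -2.23. Cd3g, a chain of the T cell receptor complex, had 9.29 and 8.69 in the CD34 positive against 11.18 and 11.61 in the CD34 negative cells (-2.40 ± 0.28). Cd7 fell by 2.04 ± 0.32, Cd3e by 1.95 ± 0.27, Ctla2a by 1.86 ± 0.41 and Il2rb by 1.84 ± 0.12, and Cd247 (-0.88 ± 0.26) did not pass. The part of T cells in the falls of Ccr4, Satb1, Itgae and the cytokine receptors was not tested. Among 6 tested melanocyte markers Mitf, a factor of melanocytes and other cells, rose by 2.75 ± 0.14, while the pigment enzymes Tyrp1 (-1.17 ± 0.37) and Dct (-1.10 ± 0.33) did not pass. With the probe sets of each gene averaged 5 melanocyte markers were tested and 0 rose, so the call of Mitf depended on the probe set chosen. Of 18 immediate early genes, which respond to handling and stress, 1 rose and 5 fell. Ier3 rose by 1.49 ± 0.12, and Fos (10.84 and 10.33 in the positive against 12.20 and 11.55 in the negative cells), Dusp1, Junb, Ier2 and Zfp36 fell by 1.29 ± 0.27, 0.93 ± 0.19, 0.93 ± 0.22, 0.91 ± 0.15 and 0.78 ± 0.16. Atf3 (-1.46 and -0.14 in K14Snail and wild type mice) and Fosb (-0.77 ± 0.25) did not pass. Without the K14Snail CD34 negative array 0 immediate early genes fell, and without the wild type CD34 positive array 2 fell. Cd7 was lost without the wild type CD34 negative array, and Ctla2a without any 1 of the 4 CD34 arrays.

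The differences of the 2 genotypes were close over most genes. Across the 10720 tested genes, which are not independent replicates, the K14Snail and wild type differences correlated at r = 0.814, and 8104 genes (75.6%) had the same sign in both. At least 2-fold in the same direction in both genotypes were 445 higher genes (4.15%) and 319 lower ones (2.98%). The test of the K14Snail difference against the wild type difference called 0 of 10720 genes (0%), with 1 residual degree of freedom. That degree of freedom comes from the Mts24 arrays. The ± of a genotype difference below thus holds no spread among CD34 arrays and does not measure how well the CD34 values repeat. Its smallest adjusted p was 0.107, and 933 genes had an unadjusted p under 0.05. The values that follow are descriptions.

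Only 7 genes differed by at least 2-fold in opposite directions, all higher in CD34 positive cells of K14Snail mice and lower in those of wild type mice. These were Bub1b, Nek2, Nusap1, Kif11, Top2a and Ccna2, which act in mitosis or DNA replication, and Dpysl2, a cytoskeletal protein. Of the 30 tested cell cycle genes 0 passed the test on the mean of both genotypes. Yet all 30 were higher in CD34 positive cells in K14Snail mice (median 0.61) and all 30 were lower there in wild type mice (median -0.83). Over all 10720 tested genes 5347 were higher in K14Snail and 6003 lower in wild type mice. The 30 genes were read on the same 1 array per group and are not independent replicates. Ccna2, which encodes cyclin A, had 10.99 and 8.80 in K14Snail and wild type positive cells against 9.77 and 9.99 in the negative cells, a genotype difference of 2.41 ± 0.24. Mki67, the Ki-67 antigen of cycling cells (chosen after its values were seen), had 10.74 and 8.30 against 9.92 and 9.84 (2.36 ± 0.22), and Top2a, a topoisomerase of dividing cells, had 10.36 and 8.01 against 9.30 and 9.21 (2.26 ± 0.23). Each of these had its highest level in the K14Snail positive array and its lowest in the wild type positive array. Between genotypes, all 30 genes were higher in K14Snail than in wild type CD34 positive cells (median 1.42), and 17 of 30 in the CD34 negative cells (median 0.01). In the Mts24 sort 30 of the 30 in K14Snail and 29 of the 30 in wild type mice were higher in positive cells, with medians of 1.07 in both. With the wild type CD34 pool left out the median difference of the 30 was 0.61, and with the K14Snail pool left out it was -0.83. Each of these fits held 1 CD34 positive and 1 CD34 negative array. They hold no spread among CD34 arrays, so their calls are not given. Leaving out the wild type CD34 positive array alone gave a median of 0.54, and leaving out the K14Snail CD34 positive array alone gave -0.66. Of 14 tested cell cycle inhibitors, Gas1 and Cdkn1b (0.60 ± 0.09) rose, Cdkn2b and Ccng2 fell by 0.69 ± 0.18 and 0.64 ± 0.11, and Btg2 (-0.52 ± 0.24) and Rbl1 (-0.34 ± 0.22) did not pass. These 2 rises and 2 falls lie near the shares of 12.1% and 11.6% over all tested genes. Cdkn2b and Ccng2 were lost without either CD34 negative array and Cdkn1b without the wild type one.

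Of 24 tested suprabasal differentiation genes 5 fell and 0 rose on the mean of both genotypes, but the median difference was -1.54 in K14Snail and -0.30 in wild type mice. Krt1, a keratin of the spinous layer, had 11.07 and 12.58 in K14Snail and wild type positive cells against 13.68 and 13.67 in the negative cells (-1.85 ± 0.44). Abca12, a lipid transporter of lamellar granules, fell by 1.83 ± 0.32, Calm4, a calcium-binding protein, by 1.77 ± 0.47, Grhl3, a factor of barrier formation, by 1.64 ± 0.14, and the transglutaminase Tgm3 by 1.24 ± 0.31. Casp14 (-2.76 and -1.33 in K14Snail and wild type mice) and Klk5 (-2.33 and -0.54) did not pass. In CD34 positive cells 0 of 24 genes were higher in K14Snail than in wild type mice (median -1.28), against 14 of 24 in the negative cells (median 0.08). The median level over all tested genes was 9.38 and 9.37 in K14Snail and wild type positive cells. The 24 genes were read on the same 1 array per group and are not independent replicates. Leaving out the wild type CD34 positive array brought the falls to 18, leaving out the K14Snail CD34 negative array brought them to 1, the wild type one to 2, and either Mts24 negative array to 3.

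Of 15 tested markers of myeloid and Langerhans cells 2 fell and 1 rose, with a median difference of -0.04 in K14Snail and -1.99 in wild type mice, and their summed linear level was 12846 and 6136 in K14Snail and wild type positive cells, against 12131 and 17546 in the negative cells. The genotypes also parted in the Mts24 sort, with a median difference of -0.71 in K14Snail and -2.16 in wild type mice. Ptprc, the pan-leukocyte antigen CD45, had 7.47 and 6.22 in the CD34 positive against 8.57 and 8.92 in the CD34 negative cells (-1.90 ± 0.40). Fcer1g, a shared Fc receptor chain, fell by 1.61 ± 0.31, and Epcam, an adhesion molecule that follicle keratinocytes also make, rose by 0.50 ± 0.11. Cd53 (-0.68 and -2.67 in K14Snail and wild type mice) and Laptm5 (-0.70 and -2.47) did not pass. Without either CD34 negative array Ptprc and Epcam no longer passed, and Fcer1g was lost without the wild type one. Of 15 genes of antigen presentation and interferon response 0 rose and 1 fell (Oas1a, by 0.65 ± 0.16), while the chemokine Cxcl9 did not pass (1.34 and 0.96 in K14Snail and wild type mice). Oas1a was lost without any 1 of the 4 CD34 arrays. The part of leukocytes in the genotype differences was not tested.

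Of 21 tested sebaceous and lipid synthesis genes 1 rose and 3 fell, near or below the 12.1% that rose and 11.6% that fell over all tested genes. Dgat2, an enzyme of triglyceride synthesis, fell by 1.18 ± 0.32, Acsbg1, an acyl-CoA synthetase, by 1.00 ± 0.10 and Fasn, the fatty acid synthase, by 0.41 ± 0.095, while Elovl5, a fatty acid elongase, rose by 0.80 ± 0.18. Without the wild type CD34 positive array 6 of the list fell. Dgat2, Fasn and Elovl5 were lost without either CD34 negative array, and Acsbg1 passed whichever array was left out. Of 3 tested Schwann cell and neural markers 1 fell, and of 8 skeletal muscle, 8 neutrophil and 2 erythroid markers on the array 1, 1 and 0 were tested.

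**Figure D4:**
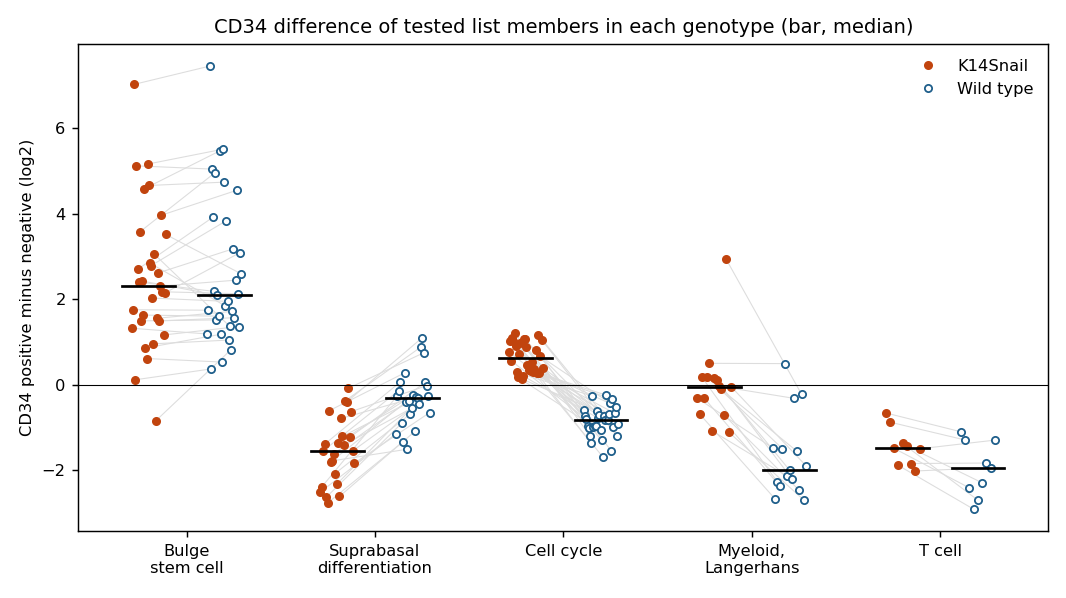
CD34 positive minus negative difference (log2, vertical axis) of each tested member of 5 gene lists, in K14Snail (filled orange) and wild type mice (open blue), with grey lines joining a gene and black bars at the medians. Bulge medians are 2.31 and 2.10 in K14Snail and wild type mice, while cell cycle medians are 0.61 and -0.83.

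Among all tested genes the largest K14Snail minus wild type differences were those of Lyz2, the lysozyme of myeloid cells (3.16 ± 1.24), Acta2 (2.91 ± 0.51), F830045P16Rik (2.57 ± 0.31) and H2-M2, an MHC class I-like gene (2.57 ± 0.65). Lyz2 had 8.97 and 5.66 in K14Snail and wild type positive cells against 6.04 and 5.88 in the negative cells, so it was high on 1 array alone. Aspm, a spindle protein (2.46 ± 0.20), Dpysl2 (2.44 ± 0.71), Cd74, the MHC class II invariant chain (2.44 ± 0.92), and Ccna2 came next. The lowest were 2 hair keratin-associated proteins, Krtap7-1 (-3.74 ± 0.51) and Krtap8-1 (-3.40 ± 0.40), with 7.0002 and 10.42 in the positive against 6.49 and 6.17 in the negative cells for Krtap7-1. Both were high in the wild type positive array alone, and members of such families can share probe signal. Aadacl2fm1 (-3.19 ± 0.43), the gelatinase Mmp2 (-2.90 ± 0.62), Mrgprb3 (-2.71 ± 0.92), Gm9696 (-2.67 ± 0.32), Rarres1 (-2.66 ± 0.20) and Rnase2b (-2.65 ± 2.07) followed, and none passed the test.

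The Mts24 antibody binds the Plet1 protein, known from the upper follicle. Of the 1298 rises in the CD34 sort 639 (49.2%) were also among the 1195 rises (11.1% of tested genes) of Mts24 positive cells, which is 53.5% of those. Of the 1244 falls in the CD34 sort 730 (58.7%) were also among the 1253 falls (11.7%) of Mts24 positive cells, which is 58.3% of those. Opposite calls were few, with 12 CD34 rises among the Mts24 falls and 29 CD34 falls among the Mts24 rises. The test of the CD34 difference against the Mts24 difference called 437 of 10720 genes (4.08%), 255 higher (2.38%) and 182 lower (1.70%). That count leaned on single arrays. It was 14 without the wild type CD34 negative array, 32 without the K14Snail one, and 830 without the K14Snail CD34 positive array. It was 57 without the K14Snail and 146 without the wild type Mts24 negative array, and 63 without the K14Snail and 129 without the wild type Mts24 positive array. With the pool as a fixed block it was 232.

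Of the 31 bulge genes 13 had a larger difference in the CD34 sort by this test, Cd34 among them, and 3 a smaller one. The 3 were Cd200, Foxc1 and Fst. Cd34 itself had 11.56 and 12.12 in K14Snail and wild type Mts24 positive cells against 10.51 and 10.03 in Mts24 negative cells, so both Mts24 fractions held it. Il31ra differed by 5.48 ± 0.30 in the CD34 sort and 1.06 ± 0.30 in the Mts24 sort, Scrg1, a small secreted protein, by 3.99 ± 0.25 and 0.089 ± 0.25, and 1700019D03Rik by 4.28 ± 0.19 and 0.32 ± 0.19. At the other end Gata6, a factor of the upper follicle and sebaceous duct, differed by 0.36 ± 0.25 in the CD34 sort and 3.81 ± 0.25 in the Mts24 sort. Sprr4, a cornified envelope protein, differed by -1.44 ± 0.43 and 4.47 ± 0.43, and the protease Klk10 by -0.26 ± 0.22 and 2.94 ± 0.22. Of the Wnt ligands above, Wnt10a had opposite differences, -0.77 ± 0.15 in the CD34 sort and 0.65 ± 0.15 in the Mts24 sort, and these differed (adjusted p = 0.0279). Wnt10a was chosen after its values were seen, and its CD34 difference was lost without either CD34 negative array.

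**Figure D5:**
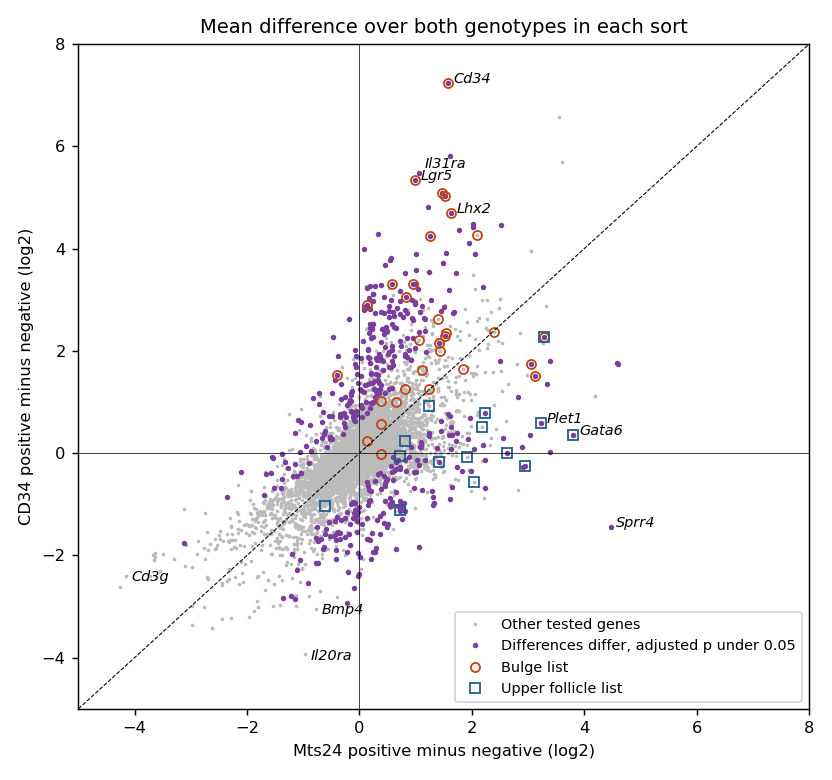
Mean positive minus negative difference over both genotypes in the CD34 sort (vertical axis, log2) against that in the Mts24 sort (horizontal axis, log2) for 10720 tested genes; purple marks the 437 genes whose differences differ at adjusted p under 0.05, orange circles the bulge list, blue squares the upper follicle list, and the dashed line equality. Cd34 lies at 7.24 in the CD34 sort and 1.57 in the Mts24 sort, and Gata6 at 0.36 and 3.81.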

How the data were processed

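RNA of magnetically drawn keratinocyte fractions was measured on 8 Affymetrix Mouse Gene 1.0 ST arrays, 1 for each genotype, antibody and fraction, with mice pooled before hybridisation (11 a pool for CD34, 9 for Mts24), per the labels. The deposited values are log2 levels from RMA, per the submitters' processing notes, for 28874 probe sets, with the version of RMA not stated there. They ranged from 3.04 to 14.49, with array medians between 7.32 and 7.42, and no array repeated another. RMA brings all arrays to 1 distribution, so a shift of most genes in a fraction would not show, and it compresses differences near background.

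Probe sets with 1 symbol in the platform annotation (21789; 1621 had several and 5464 none) were reduced to 19938 genes, keeping the probe set with the highest mean for the 999 genes with several. Genes reaching 7.70 on at least 2 arrays entered a linear model in limma (version 3.58.1; R version 4.3.3; 4 fractions and genotype as terms, pool as a random block with correlation -0.175 from statmod 1.5.0, 3 residual and 2.78 prior degrees of freedom). All 8 arrays share 1 spread, and genotype is taken to act alike in all fractions. P-values were adjusted by Benjamini-Hochberg over 10720 genes. A second fit, with genotype terms of their own for the CD34 positive and the CD34 negative arrays, tested K14Snail against wild type (1 residual degree of freedom, from the Mts24 arrays). Code was tested on simulated data. Tables were made with Python 3.11.15, pandas 2.3.3 and numpy 2.4.6 and figures with matplotlib 3.10.9.

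The text names the marker and check genes, the 12 largest rises and falls, up to 6 members of each list past the threshold and up to 2 that were not, and the 8 largest each way between sorts and between genotypes; exceptions, such as the 7 genes with opposite differences, were chosen after their values were seen. The 39 gene lists (752 of 801 entries matched, some genes in several lists) and the members were chosen with earlier results of these data known. Alternatives were the pool block, the 4 CD34 arrays alone, renewed quantile normalization, median centring, the filter, the mean of probe sets, an intensity trend, and leaving out each array or pool; fits on 6 or 7 arrays used the correlation of all 8.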

Additional observations from a re-analysis of the deposited data

Results flagged for a closer look

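The difference between sorts, CD34 positive minus negative less Mts24 positive minus negative on the log2 scale, passed limma's test in 437 genes at adjusted p under 0.05, and the genes at both ends are listed with it. Larger in the CD34 sort were Cd34 (5.66 ± 0.35), Il31ra (4.42 ± 0.43), Lgr5 (4.36 ± 0.37), Angptl7 (4.19 ± 0.30), 1700019D03Rik (3.96 ± 0.26), Scrg1 (3.90 ± 0.35), Dab2 (3.61 ± 0.35) and Pdzrn4 (3.59 ± 0.37). Smaller in the CD34 sort were Sprr4 (-5.91 ± 0.61), Gata6 (-3.44 ± 0.36), Aadac (-3.37 ± 0.51), Klk10 (-3.20 ± 0.31), Slco2b1 (-3.17 ± 0.41), Sox7 (-2.91 ± 0.26), Mab21l4 (-2.90 ± 0.35) and Calhm5 (-2.85 ± 0.46). Each value is the mean over both genotypes ± its moderated standard error, over 2 pairs of arrays in either sort. These calls leaned on single arrays: of the 16 genes listed and Wnt10a, 17 in all, 15 no longer passed without the wild type CD34 negative array and 12 without the K14Snail one. Without the K14Snail Mts24 negative or the K14Snail Mts24 positive array 11 were lost, without the wild type Mts24 negative array 3, without the wild type Mts24 positive array 5, and with the pool as a fixed block 4. Cd34 was itself the selected antigen, and it was high in both Mts24 fractions.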

How the results depend on the processing

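The count of 2542 genes for CD34 positive against negative cells was 1422 with the 4 CD34 arrays alone and between 1154 (without the K14Snail CD34 negative array) and 2280 when 1 array was left out. It was 2868 without the pool block, 2436 with the pool as a fixed replicate block, 2542 after renewed quantile normalization, 2655 without the filter, 2359 with a filter on the mean, 2508 with averaged probe sets, 2609 with an intensity trend, and 1697 and 1877 without the K14Snail and the wild type CD34 pool. Centring gave 2775, of which 41.3% were higher, against 51.1%. The count of 437 between sorts was 508 without the block, 232 with the pool as a fixed replicate block, 437 without the filter, and 14 to 830 when 1 array was left out. The genotype test called 0 genes under each alternative run, with smallest adjusted p-values of 0.0605 without the filter, 0.130 after centring and 0.107 without the block. Ptgs2, which did not pass, was higher by 0.82 when the K14Snail CD34 pool was left out, and the cause was not tested. Each fit without a CD34 pool held 1 CD34 positive and 1 CD34 negative array, so its calls hold no spread among CD34 arrays. Of 153 named genes past the threshold for CD34, 56 lost the call in at least 1 of the 8 fits that left out an array, and 0 of them changed direction while past the threshold. The labels give no replicate numbers, so no pairing beyond genotype and sort was available. The number of arrays, 1 a group, limits the precision, and levels under 7.70 set no firm size.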
